A study of Mus musculus with 10 samples.

Results

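The Vmn2r genes encode the type 2 vomeronasal receptors, and they were examined here in ATAC-seq peak lists of mouse neural stem cell lines with and without Smchd1, a chromatin protein known for its part in silencing the inactive X chromosome and some clustered autosomal genes. Every gene whose symbol starts with Vmn2r in the RefSeq gene table of GRCm38.p6 was taken, which gave 272 of the 49943 genes of that table. Of these, 123 are coding genes and 149 are pseudogenes. They lie on 16 chromosomes and form 41 clusters when neighbours at most 1 Mb apart are joined, and 17 of these clusters hold a single member. A peak was counted at a member when its summit lay in the gene or within 5 kb of it, and each peak was counted once.

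ATAC-seq marks open chromatin through the DNA into which the Tn5 transposase inserts sequencing adapters. The neural stem cells were derived from E14.5 embryos of the C57BL/6 strain that carried floxed Smchd1 (fl/fl), and the labels describe transduction with a Cre retrovirus carrying puromycin resistance (MSCV-Cre-puro), selection from 24 h and harvest at 7 days. The groups compared were Smchd1 del/del females (3 libraries), Smchd1 fl/fl females (3), Smchd1 del/del males (2) and Smchd1 fl/fl males (2). One transduction text stands with all 10 libraries, and it does not state what the fl/fl cells received. Each male library carries a description that says female, against a male title and sex entry.

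Type 2 vomeronasal receptors are class C G-protein-coupled receptors with a long extracellular domain. They detect peptide and protein pheromones in basal sensory neurons of the vomeronasal organ, where each neuron is known to express very few of them together with the G-protein subunit Gnao1. The family has grown by tandem duplication, so that many members are near copies of their neighbours and many are pseudogenes. Neural stem cells are not known to use these receptors.

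The RefSeq promoter windows show what the start of a Vmn2r gene looks like, and 118 windows of 117 members were matched by symbol. All are coding members except Vmn2r-ps130, which is named as a pseudogene and was counted as one, although the table types it as coding. Each runs from 250 bases before to 50 bases after an annotated start. The first lines give both annotated starts of Vmn2r29 on the minus strand of chromosome 7 (chr7:7278240-7278539 and chr7:7247279-7247578), because the former was the single member window that overlapped a peak, and the start of Vmn2r19 on the plus strand of chromosome 6 (chr6:123308083-123308382), a member beside which a peak was called gained in del/del females. Capitals mark every CpG.

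Vmn2r29, start under a peak: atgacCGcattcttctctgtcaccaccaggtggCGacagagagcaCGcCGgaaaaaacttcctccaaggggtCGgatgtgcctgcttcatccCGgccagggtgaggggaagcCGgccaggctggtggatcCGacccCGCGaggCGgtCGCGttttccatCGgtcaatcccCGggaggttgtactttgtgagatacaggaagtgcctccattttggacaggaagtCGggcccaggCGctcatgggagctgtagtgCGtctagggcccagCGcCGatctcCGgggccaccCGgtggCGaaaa
Vmn2r29, other start: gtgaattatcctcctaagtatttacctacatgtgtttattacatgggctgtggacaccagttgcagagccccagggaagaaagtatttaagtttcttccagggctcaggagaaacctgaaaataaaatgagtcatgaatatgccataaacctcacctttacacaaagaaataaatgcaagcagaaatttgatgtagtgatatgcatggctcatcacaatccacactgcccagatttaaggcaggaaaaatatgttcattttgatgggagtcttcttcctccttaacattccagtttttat
Vmn2r19: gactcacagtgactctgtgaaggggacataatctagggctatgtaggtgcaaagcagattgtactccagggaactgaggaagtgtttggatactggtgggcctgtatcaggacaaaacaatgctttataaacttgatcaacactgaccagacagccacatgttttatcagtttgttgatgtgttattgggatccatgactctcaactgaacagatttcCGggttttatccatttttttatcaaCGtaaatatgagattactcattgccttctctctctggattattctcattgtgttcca

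The Vmn2r29 window under the peak had 62.3% G and C and 23 CpG. The other start of the same gene had 38.3% and 0 CpG, and the Vmn2r19 window had 40.7% and 2 CpG. Over all 118 member windows the median was 38.2% with 1 CpG, and 34 windows held none. Over all 32851 windows of the table the median was 52.7% with 7 CpG. Among the members, the CpG-rich start of Vmn2r29 had the highest G and C share.

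The next 2 lines show how alike neighbouring members are. Vmn2r30 (chr7:7337444-7337743) and Vmn2r32 (chr7:7479924-7480223), both on the minus strand, agreed at 293 of 300 positions, and capitals mark the 7 positions at which they differ.

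Vmn2r30: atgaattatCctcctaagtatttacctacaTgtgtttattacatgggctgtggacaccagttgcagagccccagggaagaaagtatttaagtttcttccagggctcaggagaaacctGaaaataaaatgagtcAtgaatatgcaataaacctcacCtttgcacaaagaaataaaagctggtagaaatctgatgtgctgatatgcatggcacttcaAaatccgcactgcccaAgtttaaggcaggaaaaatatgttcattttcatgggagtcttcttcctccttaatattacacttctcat
Vmn2r32: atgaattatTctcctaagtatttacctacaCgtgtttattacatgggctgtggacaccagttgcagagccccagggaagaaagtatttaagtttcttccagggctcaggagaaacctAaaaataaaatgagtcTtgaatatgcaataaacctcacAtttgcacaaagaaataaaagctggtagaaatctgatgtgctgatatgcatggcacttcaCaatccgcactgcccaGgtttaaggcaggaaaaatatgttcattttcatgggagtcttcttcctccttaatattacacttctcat

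One of those differences, A134T counted from 1 at the 5′ end of the window with the base of Vmn2r30 first, lies in a TGANTCA word (the letters of AP-1 sites) that Vmn2r30 has and Vmn2r32 lacks. Of the member windows, 75 of 118 (63.6%) shared a run of 53 bases, the shortest tag length in the deposited headers, with another promoter window of the table, against 7.65% of all windows. Of the Vmn1r windows 53.9% shared such a run, and of the olfactory receptor (Olfr) windows 12.4%. In 9 member windows every 53-base run was found elsewhere. Tags that lie wholly in a shared stretch cannot be placed by sequence alone, and in some of the 75 windows that stretch was short. The sources used here do not state how the authors' alignment treated such tags.

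The last 2 lines show the letters TGANTCA, in capitals, in a member of the large chromosome 7 cluster (Vmn2r31, chr7:7399578-7399877, minus strand) and in a member of the large chromosome 17 cluster (Vmn2r95, chr17:18423854-18424153, plus strand).

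Vmn2r31: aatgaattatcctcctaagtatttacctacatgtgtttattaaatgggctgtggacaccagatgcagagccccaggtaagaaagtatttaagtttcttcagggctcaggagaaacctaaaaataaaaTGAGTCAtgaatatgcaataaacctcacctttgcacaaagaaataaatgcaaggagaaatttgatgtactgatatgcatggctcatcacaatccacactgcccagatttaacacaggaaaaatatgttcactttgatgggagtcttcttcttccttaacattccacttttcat
Vmn2r95: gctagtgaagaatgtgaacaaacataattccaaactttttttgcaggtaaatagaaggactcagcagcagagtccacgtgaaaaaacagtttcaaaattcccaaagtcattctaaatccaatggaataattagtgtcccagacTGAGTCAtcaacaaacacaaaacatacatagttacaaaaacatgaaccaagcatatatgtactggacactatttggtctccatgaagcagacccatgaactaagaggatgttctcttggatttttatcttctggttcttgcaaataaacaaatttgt

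These letters stood in 37 of the 118 member windows (31.4%), against 18.0% of Vmn1r windows, 13.5% of Olfr windows and 7.81% of all windows of the same length, searched on both strands. In the chromosome 7 cluster 19 of 23 windows held them, and in 14 of these the word began 123 bases before the start. In the chromosome 17 cluster 12 of 22 windows held them, with 5 at 107 bases before the start. Near-identical copies share their letters by descent, so these windows are not independent of each other. TATAAA was found in 22.9% of member windows, below the 42.2% of Vmn1r and 41.0% of Olfr windows and above the 13.6% of all. CAGCTG was found in 9.32% against 16.3%, CACGTG in 8.47% against 7.15% and AACAAAG (SOX) in 2.54% against 5.85%. The CTCF core was found in 0.847% of member windows against 2.44%, and its only member match was the CpG-rich Vmn2r29 start. The palindromic NFI word was in 0 member windows and in 0.0365% of all. A match is a description of letters and not a measured site.

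The libraries of a group had been pooled into 1 peak list, so the values below carry no spread between replicates and differences could not be tested. The lists rested on 74674218 to 144613215 tags and held 88438 to 130487 peaks, the most in fl/fl females. Each list was therefore reduced to its 88159 strongest peaks by −log10 q, as many as the shortest list held, and these are called the equal-length lists. The weakest peak kept had a −log10 q of 6.59 in fl/fl females, 4.27 in del/del females and 4.52 in fl/fl males. In del/del males, where the whole list was kept, it was 1.39. Lists of equal length were thus not cut at equal strength. The tag size was 53 bp in fl/fl females, 63 bp in del/del females, 62 bp in fl/fl males and 59 bp in del/del males. Of 12 neural stem cell markers, 11 had a peak within 1 kb of a gene end in all 4 lists. The same held for 2 of 6 sensory neuron markers, 2 of 4 neuron markers, 1 of 3 fibroblast markers and 0 of 3 microglia markers. In a given list 63.1% to 63.9% of all coding genes had such a peak. Intervals are exact binomial 95% intervals that cover counting error only and take the lists as independent, though most peaks are shared.

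With a single exception, the 118 Vmn2r promoter windows overlapped no peak in any group. The CpG-rich window of Vmn2r29 overlapped a peak in all 4 deposited lists, whereas 51.3% of all windows in the table overlapped a peak in at least 1 list. The peak there (chr7:7277529-7278540) had a fold enrichment, the authors' ratio over local background, of 7.41 in fl/fl females, 7.78 in del/del females, 9.41 in fl/fl males and 10.38 in del/del males. It was among the 44079 strongest peaks of every list. Other receptor families also had few, with 2 of 206 Vmn1r windows, 13 of 948 Olfr windows and 1 of 11 trace amine-associated receptor (Taar) windows under a peak.

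The nearest peak summit of any list lay a median of 30.1 kb from a Vmn2r start, compared with 31.2 kb for Vmn1r, 22.5 kb for Olfr and 0.374 kb for all starts. In the separate lists the Vmn2r median was 40.8 kb in fl/fl females, 35.7 kb in del/del females, 52.1 kb in fl/fl males and 57.8 kb in del/del males. The order of these medians differed between the sexes. After Vmn2r29, the window starts closest to a peak were those of Vmn2r20 at 2.63 kb, Vmn2r22 at 2.71 kb, Vmn2r57 at 3.43 kb and Vmn2r4 at 4.36 kb. Members without a promoter window, among them nearly all pseudogenes, are not covered by these distances. Vmn2r2 and Vmn2r4, both on the minus strand, extend upstream of their windows. Each had a peak within 1 kb of that upstream gene end in all 4 deposited lists. Of the Vmn2r starts 30.5% had no summit within 50 kb, against 3.17% of all starts.

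**Figure D1:**
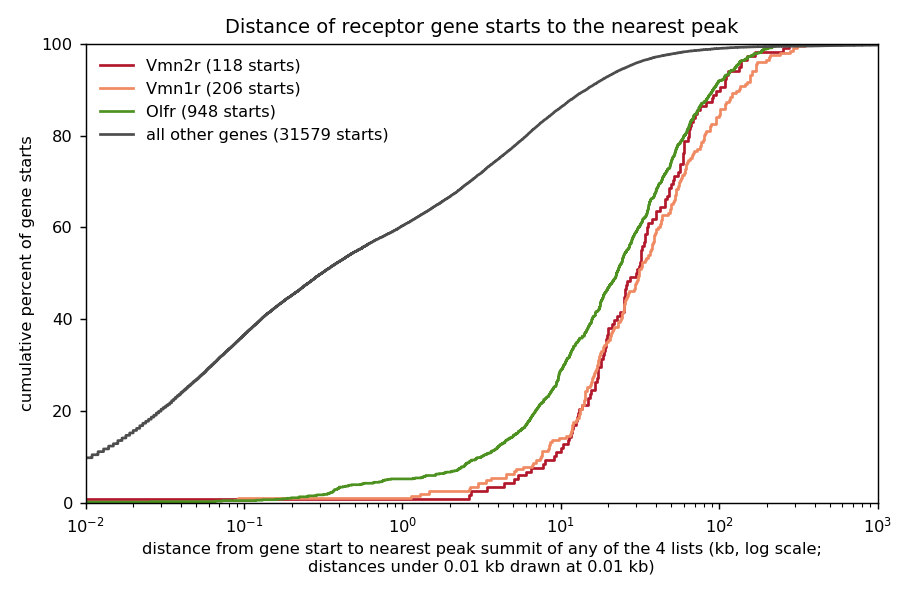
Cumulative percent of gene starts (y axis) by distance in kb to the nearest peak summit in any of the 4 deposited lists (x axis, log scale), for Vmn2r, Vmn1r, Olfr and all other genes. The Vmn2r curve follows the Vmn1r curve, with a median of 30.1 kb against 31.2 kb, and lies far to the right of all other genes.

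Peaks were found at 84 of the 272 members in at least 1 deposited list, 30 of them coding genes and 54 pseudogenes, and 40 members had a peak in all 4 lists. In the equal-length lists 66 members had a peak. Of the 41 clusters, 19 held a peak and 22, with 36 members, held none. Those without a peak include every cluster of the Y chromosome, which female lines do not carry. Vmn2r122 is listed on chromosome 4 before the first peak of that chromosome in any list, at 3050056, so it could not receive a peak. Merged over the lists, the peaks at members formed 260 loci, of which 183 lay in a member and 77 in a flank only. Of the 260 loci, 32 lay within 1 kb of a member's end and 36 within 1 kb of the end of another gene. A locus was present in all 4 deposited lists in 80 cases (30.8%), against 45.5% of all loci in the genome. Another 103 loci were in a single list. Of these 103, 47 were in fl/fl females, the longest list, 31 in del/del females, 17 in fl/fl males and 8 in del/del males. As shares of the 260 loci these were 18.077%, 11.923%, 6.538% and 3.077%. Over all loci in the genome the shares were 16.904%, 6.635%, 4.198% and 2.048% in the same order.

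Of the 5 members with the strongest peaks, 3 had that peak at an end of another gene, and Vmn2r29 had it at its own start. The strongest, in the pseudogene Vmn2r-ps23 on chromosome 5 (chr5:109690349-109691272), had a fold enrichment of 9.02 in fl/fl females, 9.20 in del/del females, 10.14 in fl/fl males and 12.6 in del/del males, and it overlapped the promoter window of 5430403G16Rik. The peak beside Vmn2r87 on chromosome 10 (chr10:130470201-130470793) had 7.65, 8.57, 9.17 and 10.39 in the same order, and lay within 1 kb of an end of Gm18755. The peak beside Vmn2r-ps91 on chromosome 8 (chr8:71881616-71882404) had 7.54, 6.98, 9.85 and 8.44, and overlapped the promoter window of the zinc finger gene Zfp709. Within Vmn2r-ps11 on chromosome 3 the strongest peak (chr3:64736594-64736919) had 7.14, 6.49, 9.09 and 6.72, and no other gene end lay within 1 kb of it. All 5 of these peaks were in all 4 lists. Across all member peaks the median fold enrichment was 2.62, 2.79, 3.13 and 3.58, below the medians of 3.33, 3.37, 4.19 and 4.29 over all peaks of the same lists.

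Members had more of the equal-length peaks in del/del than in fl/fl lists, and the direction and the interval depended on how the lists were cut and ranked. Fl/fl females had 85 member peaks and del/del females 135, a log2 ratio of 0.67 (0.27 to 1.08). Fl/fl males had 104 and del/del males 120, a log2 ratio of 0.21 (-0.18 to 0.60). The female interval lay above 0 and the male one spanned 0. The cut for equal length was stricter in the fl/fl list of each sex (−log10 q of 6.59 against 4.27 in females and 4.52 against 1.39 in males). The median deposited member peak of fl/fl females, at 5.88, lay below the cut of its list. In the other lists it lay above the cut, at 6.61 in del/del females, 6.73 in fl/fl males and 7.92 in del/del males. Ranked by pileup, the log2 ratio was 0.36 (-0.010 to 0.74) in females, and ranked by fold enrichment it was 0.46 (0.054 to 0.88) in males, so each call changed with the ranking. Among the 44079 strongest peaks the female ratio was 0.36 (-0.27 to 1.00), and for coding members alone it was 0.61 (-0.27 to 1.53). The related Vmn1r and Olfr families also had more equal-length peaks in del/del. The log2 ratios for Vmn1r were 0.21 (-0.60 to 1.02) in females and 0.42 (-0.45 to 1.30) in males. For Olfr they were 0.28 (-0.091 to 0.66) and 0.17 (-0.22 to 0.57). The 16 Taar genes had 5 peaks in fl/fl females, 1 in del/del females and 4 in each male list. Whether Vmn2r differed from these families was not tested. Over all coding genes the log2 ratio was -0.02 in females and 0.02 in males. In the lists as deposited the direction turned, with 197 and 173 member peaks in females (log2 ratio -0.19) and 144 and 120 in males (-0.26), the fl/fl lists being the longer of each pair. There the log2 ratio over all coding genes was -0.30 in females and -0.15 in males. As a percent of the deposited list, member peaks were 0.151 and 0.166 in females and 0.142 and 0.136 in males. With −log10 q held at 10 or more, the numbers were 56 and 64 in females and 57 and 49 in males, so the male direction turned there too. As a percent of the peaks passing that threshold they were 0.0825 and 0.120 in females and 0.100 and 0.104 in males.

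**Figure D2:**
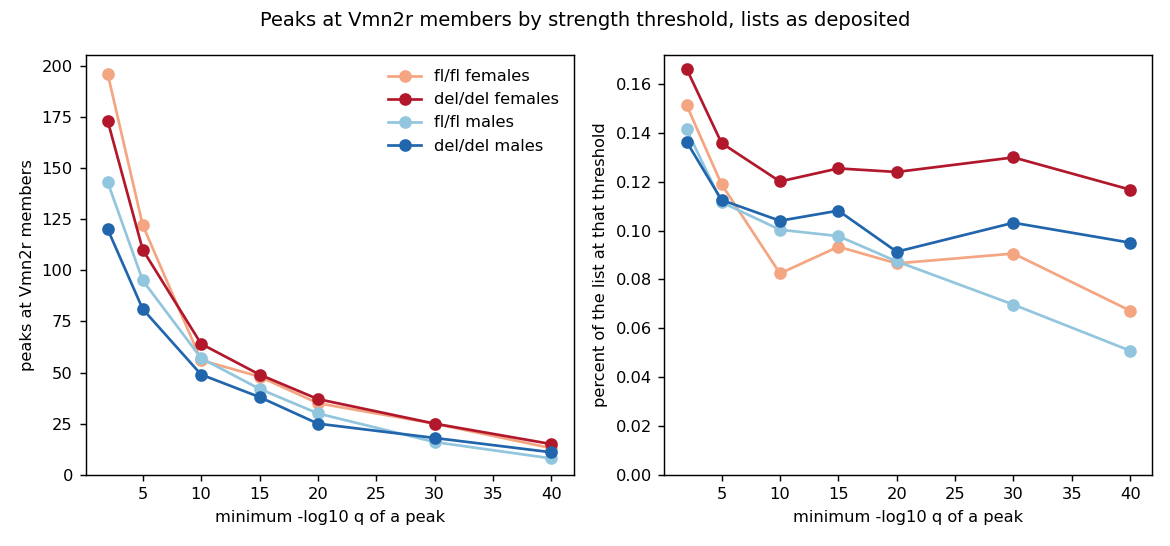
Peaks at Vmn2r members in the deposited lists (left) and their percent of all peaks in the list (right) at minimum −log10 q values from 2 to 40, with a line for each of the 4 groups. Del/del females have the highest percent at each threshold drawn, and at a threshold of 2 fl/fl females have the most member peaks, 196.

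Per gene, 26 of 54 members with a peak in either female list had more peaks in del/del (48.1%) and 5 had fewer (9.26%). Of all genes with a peak, 21.3% had more and 22.2% fewer in the same comparison. In males 20 of 62 members had more (32.3%) and 18 had fewer (29.0%), against 25.7% and 21.0% of all genes. In both sexes together, 9 of 66 members had more peaks in del/del in each sex (13.6%) and 2 had fewer (3.03%), against 7.47% and 7.24% of all genes. Neighbouring members within 5 kb share peaks, so these counts are not of independent genes.

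In the equal-length lists, much of the female difference lay in 2 large clusters made only of pseudogenes, on chromosomes 4 and 13. They are the clusters with at least 5 members and no coding one, and are called the large pseudogene-only clusters, while smaller clusters without a coding member were counted with the other clusters. These 2 clusters hold 19 members, 6.99% of the family, and 37, 76, 46 and 65 of the equal-length member peaks of fl/fl females, del/del females, fl/fl males and del/del males. That is 43.5%, 56.3%, 44.2% and 54.2% of all member peaks. The other clusters had 48, 59, 58 and 55 peaks. Without the large pseudogene-only clusters the log2 ratio was 0.30 (-0.28 to 0.88) in females and -0.077 (-0.64 to 0.48) in males. Per Mb of member windows, the large pseudogene-only clusters had 49.4, 101.5, 61.4 and 86.8 peaks and the other clusters 6.87, 8.45, 8.31 and 7.88. All coding genes had 46.4 to 47.5 peaks per Mb in the 4 lists and coding Zfp genes 57.4 to 61.6. Vmn1r genes had 5.28 to 7.54 and Olfr genes 6.75 to 8.84, near the other Vmn2r clusters.

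**Figure D3:**
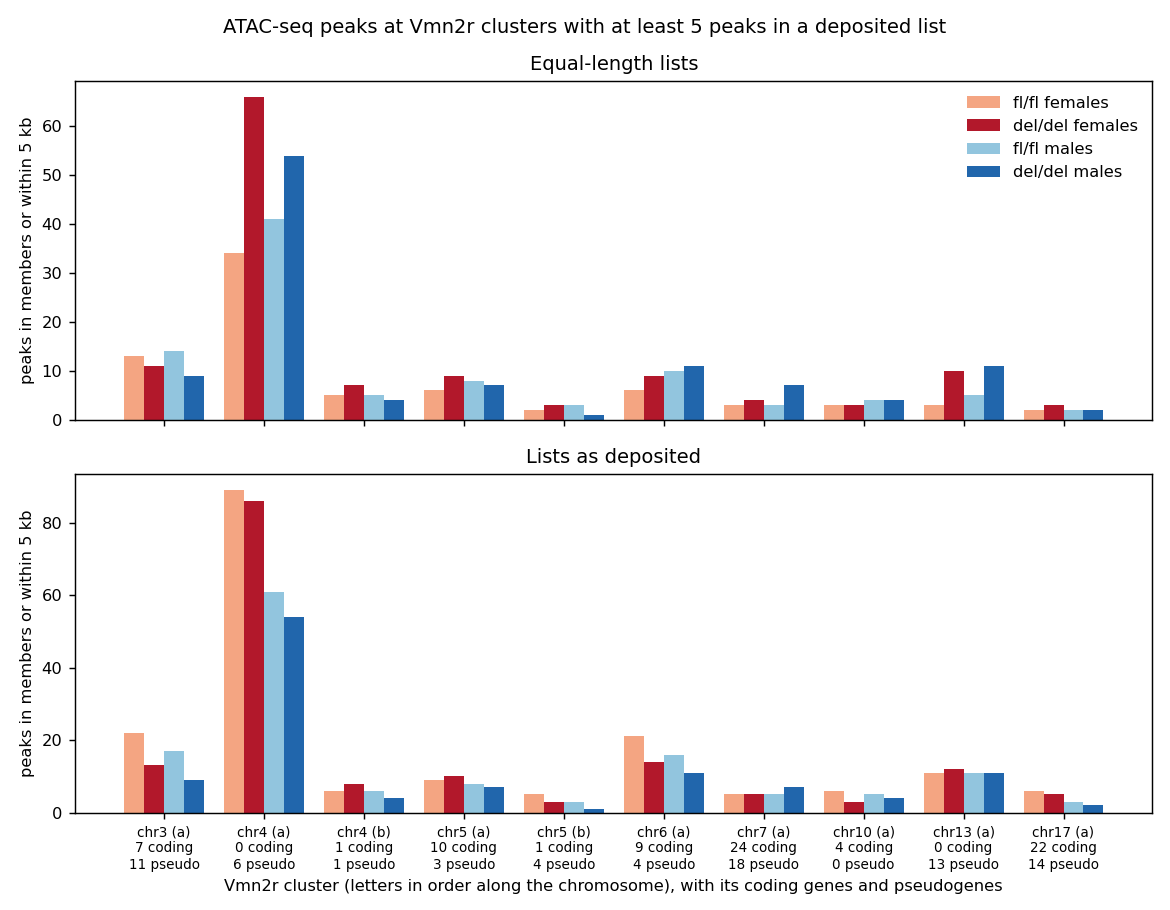
Number of peaks in members or within 5 kb (y axis) for each Vmn2r cluster with at least 5 peaks in some deposited list (x axis, with its numbers of coding genes and pseudogenes), in the equal-length lists (top) and the deposited lists (bottom), with a bar for each of the 4 groups. The chromosome 4 pseudogene cluster has 34, 66, 41 and 54 peaks in the equal-length lists and 89, 86, 61 and 54 in the deposited lists.

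The chromosome 4 cluster (chr4:145701675-147521814) holds 6 pseudogenes among 11 coding genes, all named Zfp except Rex2. Zfp genes encode zinc finger proteins, many of which bind DNA of transposable elements and repress it through a KRAB system. Fl/fl females had 34 equal-length peaks at these members and del/del females 66, a log2 ratio of 0.96 (0.34 to 1.60). Fl/fl males had 41 and del/del males 54, a log2 ratio of 0.40 (-0.22 to 1.02). Vmn2r-ps16 had 13 peaks in fl/fl females, 29 in del/del females, 18 in fl/fl males and 24 in del/del males. Vmn2r-ps17 had 10, 20, 12 and 18, and Vmn2r-ps15 had 5, 12, 6 and 6. Most of the difference lay in these 3 long pseudogenes, while Vmn2r-ps18, with 2, 2, 3 and 1, Vmn2r-ps19, with 2 in each list, and Vmn2r-ps20, with 2, 1, 0 and 3, showed no common direction. The lists as deposited held 89, 86, 61 and 54 peaks there, so the direction of these counts was not that of the equal-length lists. As deposited the fl/fl list was the longer of each pair, and these counts are not shares of a list. Of the 119 loci at these members, 34 were in all 4 deposited lists. With −log10 q at 10 or more the numbers were 17, 21, 15 and 16.

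The rest of the same span, outside the windows of members, held 77 equal-length peaks in fl/fl females, 110 in del/del females, 81 in fl/fl males and 115 in del/del males. As deposited it held 187, 162, 154 and 115, so here too the direction turned with list length. In both kinds of list the Vmn2r pseudogenes shared the direction of their surroundings. Of the 119 loci, 106 lay inside a member, 73 also inside another gene, and 20 within 1 kb of an end of another gene. Of the 34 loci in all 4 deposited lists, 23 had a higher fold enrichment in del/del and 11 a lower one in females, and 30 had a higher and 4 a lower one in males. Over all loci of the genome in all 4 lists, 23.8% were higher in del/del in females and 44.0% in males. The next 3 loci, chosen after their values were seen, are all among those higher in del/del in both sexes. Where Vmn2r-ps17 and Zfp600 overlap, a locus (chr4:146162173-146162646) had a fold enrichment of 2.51 in fl/fl females, 4.45 in del/del females, 3.16 in fl/fl males and 5.02 in del/del males. In Vmn2r-ps16 and Zfp993, a locus at an end of Gm13240 (chr4:146603736-146604770) had 4.47, 4.67, 4.22 and 6.48. In Vmn2r-ps15, a locus at an end of Gm13243 (chr4:145774214-145775276) had 4.81, 5.25, 5.50 and 6.55. Del/del tags were longer than fl/fl tags in females (63 against 53 bp) and shorter in males (59 against 62 bp), and del/del lists had fewer tags in both sexes. The part of tag length and depth in the difference was not tested.

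**Figure D4:**
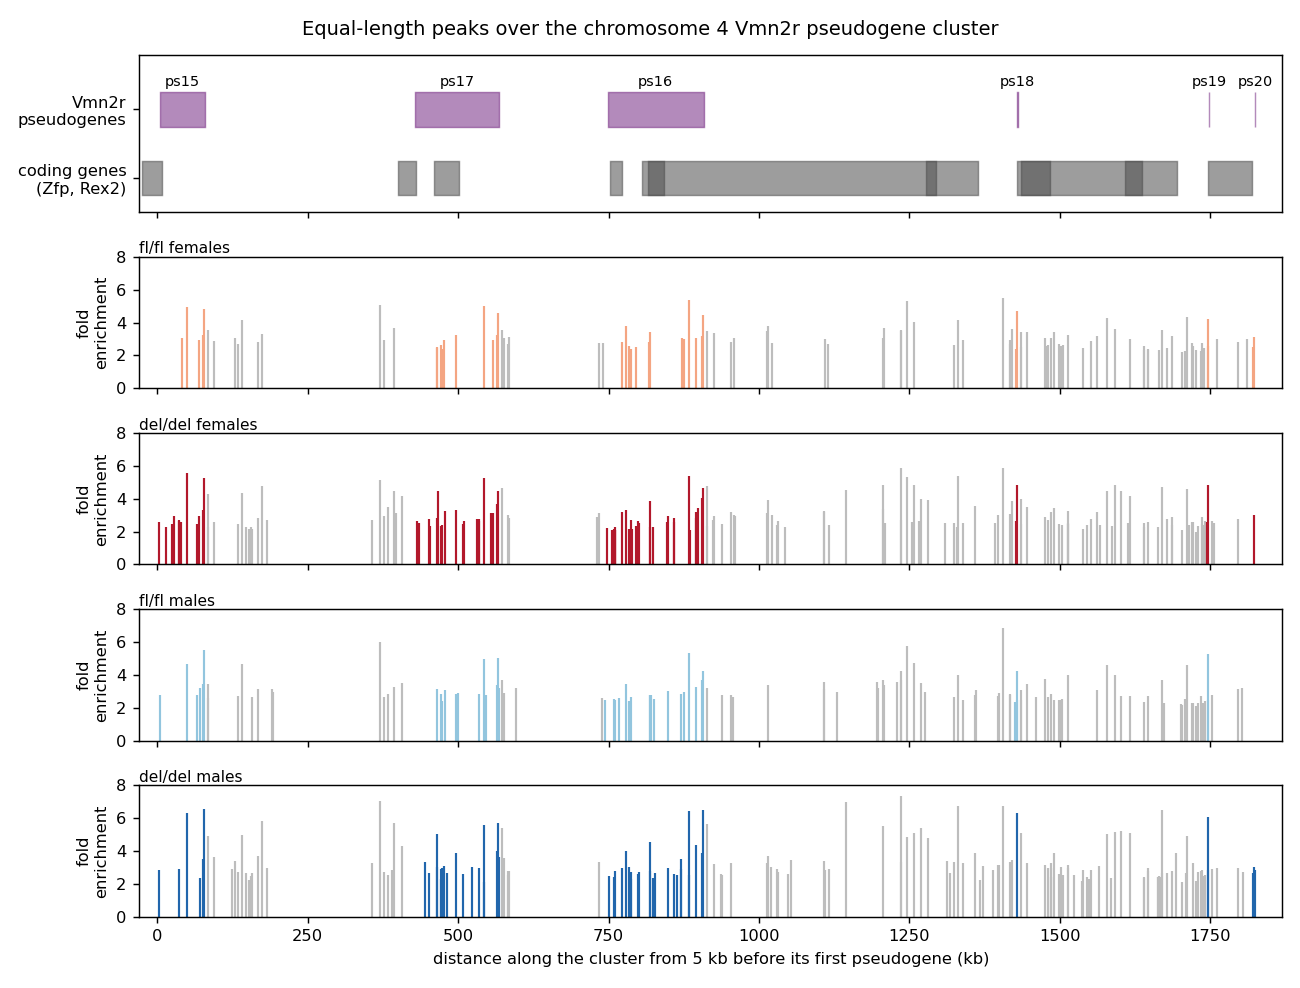
Map of the chromosome 4 pseudogene cluster as distance in kb from 5 kb before its first pseudogene (x axis), with Vmn2r pseudogenes and coding genes as boxes on top and, below, the equal-length peaks of each group at their summit with height as fold enrichment. Coloured lines are peaks at members (34, 66, 41 and 54 from top to bottom) and grey lines the rest of the span (77, 110, 81 and 115).

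The chromosome 13 cluster (chr13:65353153-66873018) holds 13 pseudogenes and had 3, 10, 5 and 11 equal-length peaks in fl/fl females, del/del females, fl/fl males and del/del males. In the lists as deposited the numbers were 11, 12, 11 and 11. The rest of this span, outside the windows of members, held 1, 21, 4 and 12 equal-length peaks, and 19, 38, 14 and 12 as deposited. In number of peaks the female difference was thus larger outside the members, over a longer stretch (1.22 Mb, against 0.313 Mb of member windows). A single arrangement recurred along it. Beside 9 of the 13 pseudogenes, a locus of 504 to 722 bp had its summit 0.941 to 1.25 kb outside an end of the pseudogene, and all 9 loci were in all 4 deposited lists. Their median fold enrichment was 2.70 in fl/fl females, 3.45 in del/del females, 2.99 in fl/fl males and 3.72 in del/del males. Of the 9 loci, 3, 8, 5 and 9 reached the equal-length lists in that order. The del/del male list was kept whole, so all 9 had to be in it. In each sex the fl/fl list was cut at a stricter −log10 q, so these counts do not compare the groups at equal strength. The locus beside Vmn2r-ps98 (chr13:65726439-65727117) had 2.62, 3.53, 2.39 and 4.29, and the locus beside Vmn2r-ps96 (chr13:65420254-65420926), which overlapped the promoter window of Gm31714, had 3.10, 4.68, 2.51 and 3.72. Fold enrichment was higher in del/del at 8 of the 9 loci in females and at 5 in males. The locus beside Vmn2r-ps97 was lower in del/del in both sexes, at 2.54, 2.46, 2.75 and 2.58, and those beside Vmn2r-ps99, Vmn2r-ps102 and Vmn2r-ps109 were lower in males. As the pseudogenes are copies of each other, the 9 loci may share sequence and were not counted as independent.

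The order of peaks within a list was also compared. Among loci present in both equal-length lists of a sex, 58 of 73 member loci (79.5%) stood higher in the del/del list in females, against 48.1% of all loci, and 47 of 75 (62.7%) in males, against 50.4%. In the large pseudogene-only clusters these were 29 of 33 (87.9%) in females and 30 of 35 (85.7%) in males. In the other clusters they were 29 of 40 (72.5%) in females and 17 of 40 (42.5%) in males. The large pseudogene-only clusters stood higher in del/del in both sexes and the other clusters in females, and the difference between the sexes was not tested.

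**Figure D5:**
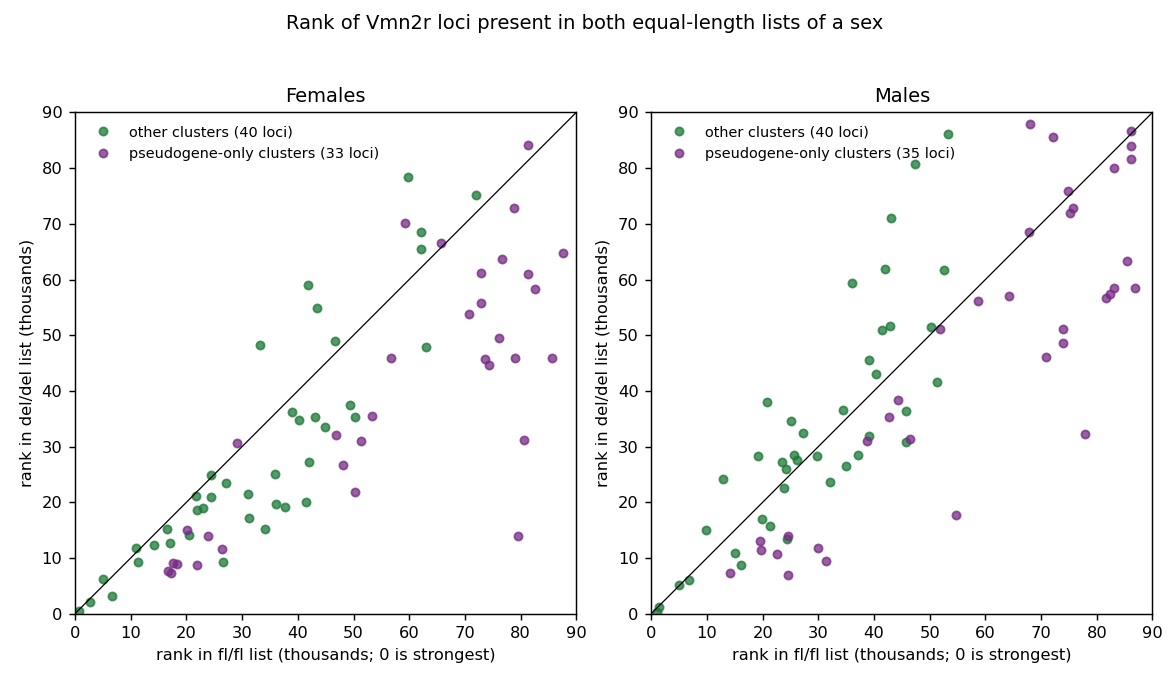
Rank in the del/del list (y axis, in units of 1000) against rank in the fl/fl list (x axis, same units, low being strong) for Vmn2r loci present in both equal-length lists of females (left) or males (right), with the diagonal of equal rank. Purple points are the large pseudogene-only clusters, of which 29 of 33 in females and 30 of 35 in males lie below the diagonal. Green points are the other clusters, with 29 of 40 and 17 of 40 below it.

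Present in both del/del equal-length lists and in neither fl/fl one were 14 of 179 member loci (7.82%, against 2.67% of all loci), 10 of them in the large pseudogene-only clusters. The reverse pattern held for 3 of 179 (1.68%, against 3.65%). Of the 14 loci, 9 had a weaker peak in a deposited fl/fl list, so that 5 had no fl/fl peak at all. Those 5 lay at Vmn2r-ps16 (2 loci), Vmn2r11, Vmn2r37 and Vmn2r-ps72. The 3 loci of the reverse pattern lay at Vmn2r128, Vmn2r-ps8 and Vmn2r-ps16, and none of them had a del/del peak in the deposited lists. At Vmn2r-ps8 (chr3:64479159-64479430) the fold enrichment was 3.10 in fl/fl females and 4.43 in fl/fl males. Over the lists as deposited the order of the 2 patterns turned. There 7 of 260 member loci were in both del/del lists and neither fl/fl list (2.69%, against 0.984% of all loci). The reverse held for 14 of 260 (5.38%, against 5.59%).

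The 3 calls by a stricter rule were all gains. A gained peak belonged to the 44079 strongest of the del/del list and overlapped no peak of the equal-length fl/fl list, and a lost peak was the reverse. In females 2 of 50 member peaks were gained, against 1.13% of all such peaks, and 0 of 39 were lost, against 0.440%. In males 1 of 47 was gained, against 0.837%, and 0 of 43 were lost, against 1.09%. No gain was shared by the sexes, against 0.306% of all such female peaks, and no loss was shared, against 0.0318%. With so few calls the shares have wide counting intervals, 0.488% to 13.7% for the gains in females and 0.0538% to 11.3% in males.

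The gains in females were beside Vmn2r19 on chromosome 6 and inside Vmn2r-ps72 on chromosome 7. The Vmn2r19 peak (chr6:123340172-123340388) lay 3.72 kb from the gene, and had a fold enrichment of 4.85 in del/del females, 4.79 in fl/fl males and 5.87 in del/del males, with no peak in fl/fl females. It was therefore absent from a single list, and the start of Vmn2r19 printed above lay 31.9 kb from it. The Vmn2r-ps72 peak (chr7:85589887-85590235) had 4.76 in del/del females and 3.43 in del/del males, with no peak in either deposited fl/fl list. The gain in males was 1.05 kb from Vmn2r-ps108 on chromosome 13 (chr13:66807679-66808355), a locus of the recurring arrangement described above, with 2.78 in fl/fl females, 3.20 in del/del females, 2.87 in fl/fl males and 4.86 in del/del males. It had a peak in all 4 deposited lists.

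Clusters with a coding receptor held few peaks each. In females 7 of the 11 with an equal-length peak had more in del/del and 1 had fewer, and in males 4 of 12 had more and 5 had fewer. The coding members had 19, 29, 27 and 30 peaks in fl/fl females, del/del females, fl/fl males and del/del males. The chromosome 3 cluster (chr3:64053034-64899759, with 7 coding genes and 11 pseudogenes) had 13, 11, 14 and 9 equal-length peaks in fl/fl females, del/del females, fl/fl males and del/del males. It had fewer in del/del in both sexes, with Vmn2r128 at 3, 1, 2 and 1. The chromosome 6 cluster (chr6:123308333-124231784, with 9 coding genes and 4 pseudogenes) had 6, 9, 10 and 11, and 21, 14, 16 and 11 in the lists as deposited. The large chromosome 7 cluster (chr7:7153726-10176286, with 24 coding genes and 18 pseudogenes) had 3, 4, 3 and 7. The large chromosome 17 cluster, with 22 coding genes and 14 pseudogenes, had 2, 3, 2 and 2. Another chromosome 7 cluster (chr7:41399732-43048106) had 1, 3, 1 and 2. Of all 41 clusters, 22 had no peak in any deposited list. Of the same 41, 5 had more equal-length peaks in del/del in both sexes, on chromosomes 4, 6, 7 (2 clusters) and 13. In the lists as deposited that held for 0 clusters. Without pseudogenes it held for 2, with a −log10 q of 10 or more for 3, and without the large pseudogene-only clusters for 3. In the equal-length lists a single peak made the difference on chromosome 6 in males. The same was true of the large chromosome 7 cluster in females and the other chromosome 7 cluster in males.

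On chromosome 6, members that are copies of each other had peaks at matching places. Vmn2r21 had loci 26.6 kb and 2.94 kb before its gene end (chr6:123506660-123507582 and chr6:123529668-123530947), and Vmn2r22 had loci 26.6 kb and 3.01 kb before its own (chr6:123623874-123624803 and chr6:123647309-123648156). Vmn2r20 had a locus 2.63 kb before its gene end (chr6:123414487-123415622). For Vmn2r20 and Vmn2r22 that gene end is the annotated start. All 5 loci were in all 4 deposited lists. The loci near the gene end of Vmn2r21 had a fold enrichment of 4.78, 5.81, 5.98 and 6.03 in fl/fl females, del/del females, fl/fl males and del/del males, those of Vmn2r22 6.11, 5.26, 7.31 and 5.15, and that of Vmn2r20 4.79, 5.83, 6.25 and 6.79. The groups showed no common order over these loci.

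Genes that act with the receptors in vomeronasal neurons had peaks at their ends more often than the Vmn2r members did. Of 24 such genes, 12 had a peak within 1 kb of a gene end in all 4 equal-length lists, among them the G-protein subunit genes Gnao1 and Gng8, the transcription factor genes Tfap2e and Bcl11b, and Robo2, an axon guidance receptor. Another 11 had none, and these were Trpc2, the transduction channel, the chloride channel Ano1 and all 9 H2-M genes of the list, nonclassical class I molecules that are expressed with type 2 receptors. Omp had such a peak in fl/fl females only. The equal-length peaks over all 24 genes numbered 159, 157, 145 and 138 in fl/fl females, del/del females, fl/fl males and del/del males. Of 15 other class C receptor genes, including the metabotropic glutamate receptors and the GABA-B receptors, 13 had an end peak in all 4 lists, and their peaks numbered 104, 104, 103 and 104. By the same measure 12 or 13 of the 24 vomeronasal genes had an end peak in a given list, and 2 to 5 of the 123 coding Vmn2r members. Of 21887 coding genes 63.1% to 63.9% had one, a larger share than in either of these sets. Both gene lists differed between del/del and fl/fl by fewer peaks than the Vmn2r members did in females.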

How the data were processed

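ATAC-seq was run on 10 libraries in 4 groups. Tools named in the submitters' processing notes, with no role given, are Bowtie2 2.2.5, Trim Galore 0.4.0, Picard, SAMtools, bcl2fastq, MACS2 and edgeR, and the build is mm10. Each group's alignments were pooled and its peaks called by MACS 2.1.0.20140616, per the file headers, without a control (shift 75 bp, extension 150 bp, q-value limit 0.05, 1 tag per position). The pileup (a signal height), fold enrichment (a ratio over local background) and −log10 q of each peak are the authors' deposited values.

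Only peaks of chromosomes 1 to 19, X and Y were used. They were ranked by −log10 q and compared in lists of 88159 peaks, with sharing defined as at least 1 bp of overlap. Members and gene lists were chosen with earlier results of these data known. Members were named where they had a gained or lost peak, the largest differences of a cluster, the 5 strongest peaks, or an end peak in all 4 lists. Vmn2r20, Vmn2r30, Vmn2r31, Vmn2r32, Vmn2r95, Vmn2r122 and Vmn2r-ps130 fall outside that rule and were chosen after their values were seen. No genome was used here, so motifs planned for peaks were searched in RefSeq promoter windows. The calling was checked on simulated data. Alternatives changed list length, threshold, ranking, flank, members, overlap, margin and cluster gap. The software was matplotlib 3.10.9, scipy 1.17.1, numpy 2.4.6 and pandas 2.3.3 under Python 3.11.15.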

Additional observations from a re-analysis of the deposited data

Results flagged for a closer look

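In 3 clusters there were more equal-length peaks in del/del than in fl/fl lists of females and fewer in males, and the difference between the sexes was not tested. The chromosome 4 cluster from 156331103, with Vmn2r129 and Vmn2r125, had 5 and 7 peaks in fl/fl and del/del females and 5 and 4 in males, a difference of 3 between the changes. The chromosome 5 cluster from 108797193, with Vmn2r-ps23, had 6 and 9 in females and 8 and 7 in males, a difference of 4. The chromosome 5 cluster from 151435948 had 2 and 3 in females and 3 and 1 in males, a difference of 3.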

How the results depend on the processing

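No paired analysis was possible because each group has 1 list called on pooled libraries, and for the same reason no library could be left out. Of 106 values recomputed under an alternative, 4 turned in direction, 29 moved further than the limit set, and 73 did not (the reported counting interval for log2 ratios and percents, 1.5 times for counts). Within that limit the log2 ratio still went from 0.67 to 0.30 in females without the large pseudogene-only clusters, and in males from 0.21 to 0.024 ranked by pileup. The log2 ratio of member peaks turned with all peaks as deposited, to -0.19 in females and -0.26 in males, and in males with a −log10 q of at least 10, to -0.22, and without the large pseudogene-only clusters, to -0.077. In females it fell to 0.19 with a −log10 q of at least 10. Clusters with more peaks in del/del in both sexes numbered 5, and 0 as deposited, 3 with a −log10 q of at least 10, 3 ranked by pileup, 2 without pseudogenes and 3 without the large pseudogene-only clusters. Gains in females numbered 2, and 1 with a −log10 q of at least 10, 7 ranked by pileup, 1 with the gene body alone, 1 without pseudogenes, 60 with no margin of strength and 0 among the 22039 strongest peaks. Gains in males numbered 1, and 0 as deposited, with a −log10 q of at least 10, with the gene body alone, without pseudogenes, among the 22039 strongest peaks and without the large pseudogene-only clusters, 2 ranked by pileup, 2 with 10 kb of flank and 41 with no margin. Gains shared by the sexes numbered 0, and 1 ranked by pileup and 15 with no margin. Losses in females numbered 0, and 1 as deposited, 1 ranked by fold enrichment and 12 with no margin. Losses in males numbered 0, and 3 ranked by pileup, 2 when sharing needed a larger overlap (0.5 of the peak) and 26 with no margin. The causes were not tested. The alternatives that leave out large pseudogene-only clusters, and those that rank loci otherwise, were chosen after seeing the data. Under them, loci of the large pseudogene-only clusters that stood higher in del/del made up 88.0% to 93.2% in females and 76.3% to 91.3% in males. Over all loci these shares were 47.8% to 50.5% in females and 50.7% to 51.8% in males. For the other Vmn2r clusters they were 62.5% to 75.6% in females and 35% to 50% in males. The male lists had fewer tags than the female lists, and the part of depth in these values was not tested.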
